A study of Mus musculus with 8 samples.

Results

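The proteasome subunit genes were read in endothelial cells sorted from mouse brain at postnatal day 8. Members were all symbols of the form Psma to Psmg followed by a number, leaving out the 3 immunoproteasome genes Psmb8, Psmb9 and Psmb10, which gave 47 of the 24394 symbols shared by the 8 libraries. The rule reads symbols only, though it was set with earlier results of these data known. WT stands for 4 libraries from wild-type mice and YT-ECKO for 4 libraries from mice carrying VE-cadherin-CreERT2 with homozygous floxed Yap and Taz alleles (Yapf/f Tazf/f). All 8 are labelled C57BL/6J, and all are labelled as sorted brain endothelial cells. VE-cadherin is an endothelial junction protein, so this promoter restricts the inducible Cre recombinase to endothelial cells, and Yap1 and Wwtr1 (Taz), the co-activators of the Hippo pathway, are its targets. The sources used here do not give whether WT mice carried Cre or received the inducing drug. They also do not say whether the libraries of a group came from different mice, so p-values cover only the spread between libraries, which may be technical.

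The proteasome is the protease complex that degrades proteins tagged with ubiquitin in the cytosol and nucleus. Its barrel-shaped core particle is built from rings of alpha subunits (Psma genes), which gate the entrance, and rings of beta subunits (Psmb genes), of which Psmb5, Psmb6 and Psmb7 carry the cutting sites. A regulatory particle caps the barrel: its base holds a ring of ATPases (Psmc genes) that unfold the substrate, and its lid holds the enzyme that takes ubiquitin off. Other activators (Psme genes) can bind the core in place of that cap, and chaperones (Psmg genes and some Psmd genes) help assembly. By these roles the members comprised 16 core genes (8 alpha, 8 beta), 17 genes of the regulatory particle (9 base, 8 lid), 6 activators or inhibitors and 7 assembly chaperones. The symbol rule also took in Psmc3ip, a meiotic recombination factor named after a partner protein and not a subunit. It is left out of the counts by role below, but counts, sums and rankings over all members include it.

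Each library is a table of log2 values, which were returned to the linear scale and are called scaled reads, because low values fell at whole multiples of a library-specific unit, the worth of a single read. This unit put the depth at 6.64 M reads (YT-ECKO 1) to 16.9 M reads (WT 1). All 12 endothelial marker genes were above 0 in all 8 libraries, with sums of 184836 to 204200.0 scaled reads in WT and 155830.0 to 212088 in YT-ECKO. The sums of 9 erythroid genes ran from 17753 to 49654 in WT and from 17869 to 60042 in YT-ECKO, while those of 10 mural, 10 neuronal, 8 astrocyte, 8 oligodendrocyte and 10 microglial genes stayed at or below 1896 in each library. The neuronal sum ran from 5.97 to 187 in WT and from 0 to 1896 in YT-ECKO, and the microglial sum from 161 to 1043 and from 1.51 to 330.0. Of these lists, 6 neuronal markers (Syt1, Gad1, Gad2, Slc17a7, Neurod1, Dcx), 2 astrocyte, 3 oligodendrocyte and 4 microglial markers were at 0 in all 8 libraries. The targeted genes were lower in the libraries labelled YT-ECKO, at 0.167 (Yap1) and 0.201 (Wwtr1) of the WT mean. Each had all 4 YT-ECKO values below all WT values, but only Wwtr1 passed the test over all genes (limma adjusted p = 0.0113), and Yap1 did not (limma adjusted p = 0.175).

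Summed proteasome RNA had nearly equal means in WT and YT-ECKO, and it varied more within each group than between them. The 47 members summed to 36629.8 ± 6698 scaled reads in WT and 36482 ± 9020.4 in YT-ECKO (SD, n = 4 each), a ratio of means of 0.996. Core particle genes summed to 10356, 15549.6, 8589 and 16129 scaled reads in WT 1 to 4. In YT-ECKO 1 to 4 the core sums were 19916, 10035, 9089.9 and 16494. The groups overlapped over almost their whole range, and the spread lay within each group: WT 2, WT 4, YT-ECKO 1 and YT-ECKO 4 held the high core sums and the other libraries the low ones. Regulatory particle genes summed to 18874, 21097, 16808 and 22944 in WT 1 to 4 and 22655, 18286, 14774 and 19747 in YT-ECKO 1 to 4, with the same libraries at the high end. The ratio of the core sum to the regulatory sum was 0.625 ± 0.112 in WT and 0.720 ± 0.162 in YT-ECKO (SD, n = 4 each). Rn45s, the ribosomal RNA precursor, took 13.5, 13.1, 13.8 and 14.8% of the total in WT 2, WT 4, YT-ECKO 1 and YT-ECKO 4, against 8.39, 11.8, 10.8 and 8.97% in WT 1, WT 3, YT-ECKO 2 and YT-ECKO 3. This split, noticed after the values were seen, leaves sets of 4 libraries, each with both genotypes, too few for a correlation within a set, and the part of Rn45s in these sums was not tested. The same sets showed weakly over all genes tested, in correlations of the deviations from the group means. These were positive in 8 of 8 pairs of a WT and a YT-ECKO library from the same set (0.02 to 0.08). They were negative in 8 of 8 pairs from different sets (-0.08 to -0.03). Deviations cancel out within each group, so the signs of these pairs are tied together and are not separate agreements. The sets were also chosen from these data. In bulk samples fewer cells and less RNA per cell cannot be told apart.

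**Figure D1:**
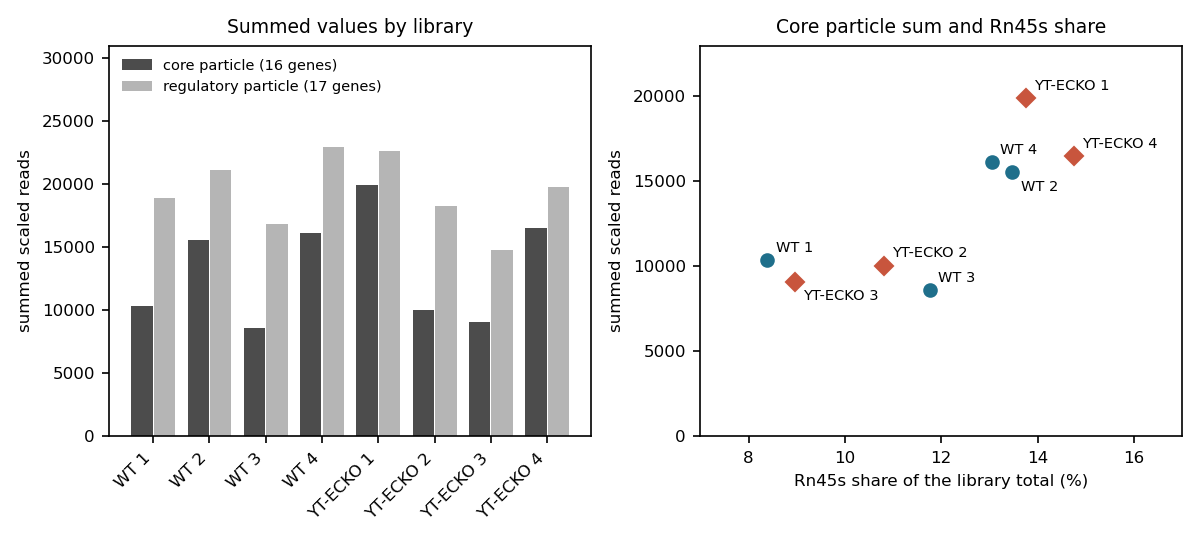
Left, summed scaled reads of the core particle genes (dark bars) and regulatory particle genes (light bars) in each library. Right, the core sum of each library against the share of its total taken by Rn45s (WT circles, YT-ECKO diamonds). The libraries with the 4 highest Rn45s shares have the 4 highest core sums, 2 of them in each group. These are also the 4 libraries of lowest depth.

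No member passed the test over all genes. Of the 47 members 45 reached 10 scaled reads in 4 or more libraries and were tested, with Psmb11 and Psme2 left untested, and 0 of the 45 were called (limma on the log2 of scaled reads plus a pseudocount of 2 to the power 7, Benjamini-Hochberg adjusted p under 0.05) where 3 of 8706 genes, or 0.0345%, were called over the whole table. At an unadjusted p under 0.05 there were 2 members, Psmd12 and Psmf1, or 4.44%, against 5.47% of all genes tested. The groups did not overlap for 1 of the 45 tested members, Psme4, or 2.22%, against 3.40% of all genes (1.33% higher and 2.07% lower in YT-ECKO). These shares lay near the background. Of all tested members 17 had higher and 28 lower estimates in YT-ECKO (median log2 difference -0.10); over all genes 43.1% had higher values and the median was -0.09. The 95% interval of a member extended 1.07 log2 units each way in the median, so a 2-fold difference of a single member was mostly not detectable. For 5 members the interval lay within 2-fold either way on this scale, namely Psmb6, Psmd2, Psmd3, Psmd4 and Psma8 (11.1% of members, against 12.5% of all genes); Psma8 is there because the pseudocount exceeds most of its values.

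**Figure D2:**
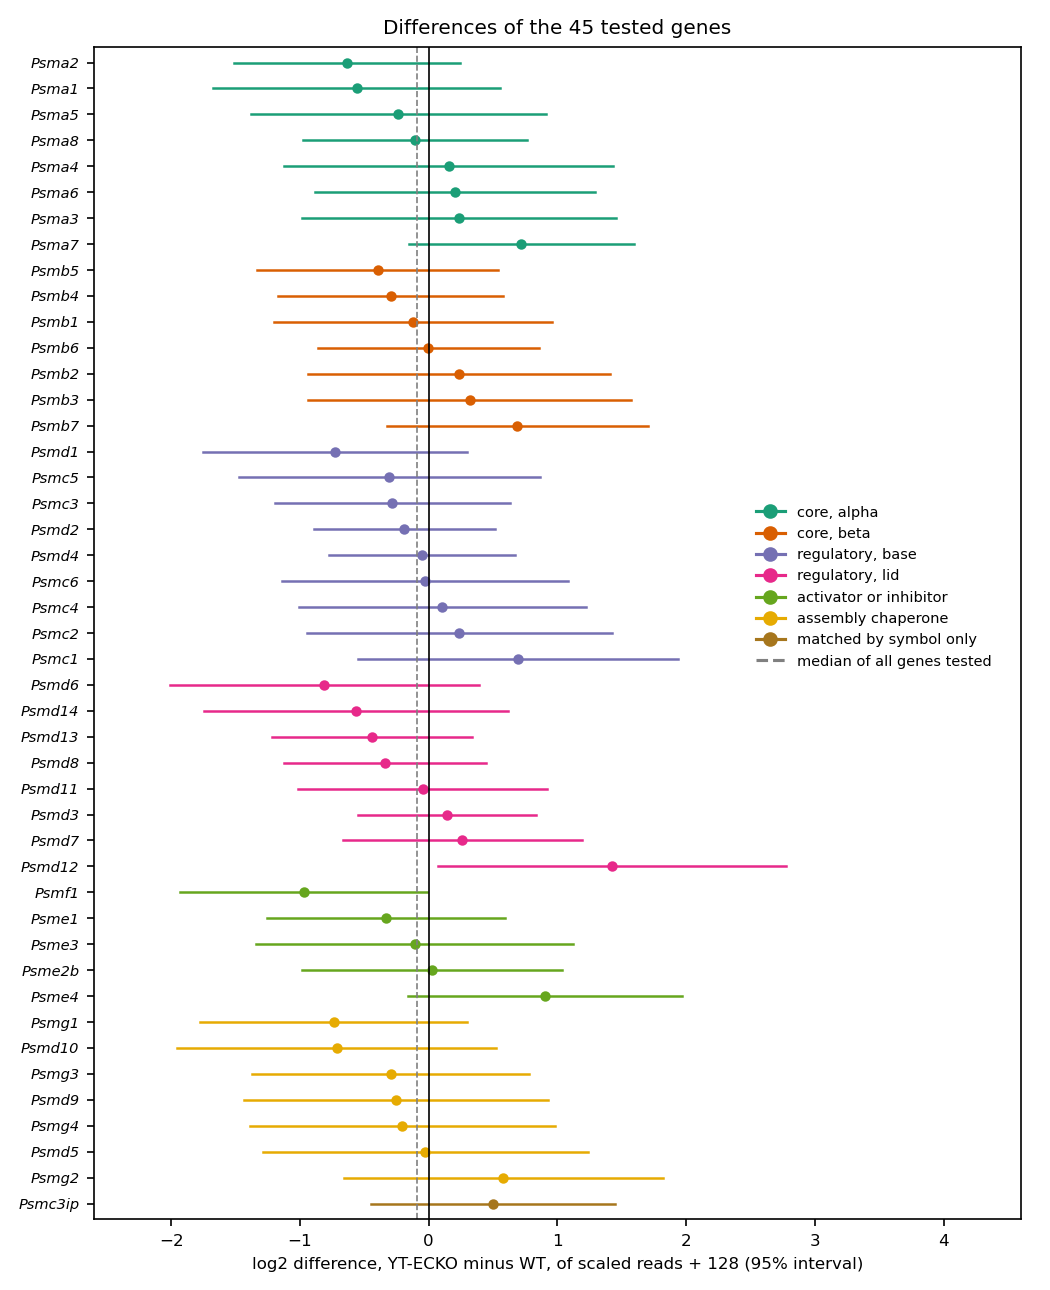
Fitted log2 difference (YT-ECKO minus WT, of scaled reads plus the pseudocount, horizontal axis) of each tested member, with its 95% interval from limma, coloured by role. The intervals of all members but Psmd12 and Psmf1 include 0, and the dashed line marks the median of all genes tested, -0.09.

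The members differed widely in level. Per kilobase of the longest coding transcript, WT levels were led by Psmd4 (2044 ± 403 scaled reads per kb, SD, n = 4), a ubiquitin receptor of the base. Psma7 (1681 ± 550.1), Psmb6 (1569 ± 484), Psmb4 (1414 ± 387), Psmb5 (1355 ± 588), Psmd3 (1252 ± 218), Psmd8 (1239 ± 498) and Psmd2 (1075 ± 181) followed in that order per kb. Each of these neighbours lay within the other's SD, so their order is not resolved. At the low end stood Psmb11 (3.24 ± 2.74), the beta subunit of thymus cortex, then Psmc3ip (32.5 ± 42.2), Psme4 (37.9 ± 6.13) and Psma8 (46.3 ± 37.0), an alpha subunit of germ cells, all per kb in WT. The core is built from its subunits in equal number, yet the mean WT level per kb of the widely expressed alpha genes ran from 81.8 (Psma3) to 1681 (Psma7). The longest coding transcript of Psma3, 2846 bases against 1157 for Psma7, lowers its value per kb. Undivided, the WT means of these alpha genes ran from 233 (Psma3) to 1982 scaled reads (Psma2). The order of the 47 mean levels was alike in the groups, with a Spearman rho of 0.895 for scaled reads and 0.899 per kb; this is across genes that share libraries and describes these libraries only. The kit name in the labels, Quant-Seq, is that of a 3′ end method, in which reads do not scale with length, but whether the kit used was that one could not be settled from the labels. If it was, the values per kb do not order the genes, and the undivided scaled reads apply, whose WT means begin with Psmd4, Psmd2, Psmd3 and Psmd8.

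Of the 8 tested alpha genes of the core, 4 had higher and 4 lower estimates in YT-ECKO (median log2 difference 0.03). Psma7 (chr2:180036374-180042433, GRCm38), the alpha subunit with the highest estimate in YT-ECKO, stood at 1898, 2619, 1101 and 2160.3 scaled reads in WT 1 to 4. In YT-ECKO 1 to 4 it stood at 6941, 1447, 2218 and 4288. YT-ECKO 1 and 4 lay above all WT libraries, and YT-ECKO 2 and 3 lay within their range. The erythroid marker sum was also highest in YT-ECKO 1 and 4, at 60042 and 59592, and its part in the Psma7 values was not tested. The log2 difference of Psma7 was 0.72 ± 0.42 (SE), not past the threshold (limma adjusted p = 0.960), and it was 0.35 without YT-ECKO 1. Psma2 had the lowest estimate, with 1020.5, 2542, 1365 and 2998 scaled reads in WT 1 to 4 and 1222, 803, 903 and 1771 in YT-ECKO 1 to 4. Its 2 highest values were WT 4 and WT 2 and its 2 lowest YT-ECKO 2 and 3, and its log2 difference was -0.64 ± 0.43 (SE), also not past it (limma adjusted p = 0.980); without WT 4 it was -0.41. The other alpha genes had log2 differences from -0.56 (Psma1) to 0.23 (Psma3). Psma8 was listed at 0 in WT 2 and YT-ECKO 1 and did not exceed 149.8 in any library.

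The catalytic beta genes gave estimates on both sides of 0. Psmb5, which carries the chymotrypsin-like activity, stood at 1085, 1408, 565 and 1815 scaled reads in WT 1 to 4 and 1000.1, 483, 999 and 956 in YT-ECKO 1 to 4. YT-ECKO 2 lay apart below the other YT-ECKO libraries, and the groups overlapped (log2 difference -0.39 ± 0.45 (SE), limma adjusted p = 0.990). Psmb6, with the caspase-like activity, stood at 1335, 1362, 703 and 1608 in WT 1 to 4 and 1322, 1353, 805 and 1432 in YT-ECKO 1 to 4. The YT-ECKO range lay within the WT range, and the 95% interval of its log2 difference ran from -0.86 to 0.86. Psmb7, with the trypsin-like activity, stood at 487, 648, 236 and 679 in WT 1 to 4 and 1361, 958, 511 and 787 in YT-ECKO 1 to 4. The highest 3 values of Psmb7 were YT-ECKO libraries, and YT-ECKO 3 lay within the WT range (log2 difference 0.69 ± 0.49 (SE), limma adjusted p = 0.981, two-sided exact permutation p = 0.114). Without WT 3 the log2 difference of Psmb7 was 0.44. The other tested beta genes, Psmb1 to Psmb4, had log2 differences from -0.29 to 0.32. The sum of the 3 catalytic genes was 2982 ± 1101 in WT and 2992 ± 580.0 in YT-ECKO (SD, n = 4 each). Over the 7 tested beta genes, 3 had higher and 4 lower estimates in YT-ECKO (median log2 difference -0.00), and over the 15 tested core genes 7 were higher and 8 lower, with a median of -0.00. Psmb11 stood at 4.88, 17.1, 4.32 and 28.8 scaled reads in WT 1 to 4 and 1.61, 1.76, 2.27 and 1.17 in YT-ECKO 1 to 4. All 4 YT-ECKO values of Psmb11 lay below all WT values. Its two-sided exact permutation p was 0.0286, the smallest that 4 against 4 can give, which any such separation gives. Of all genes tested 2.07% were separated in this direction, but Psmb11 was too low to be tested. The YT-ECKO values of Psmb11 correspond to 1 to 3 sequenced reads, against 5 to 29 for WT, at the limit of counting.

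**Figure D3:**
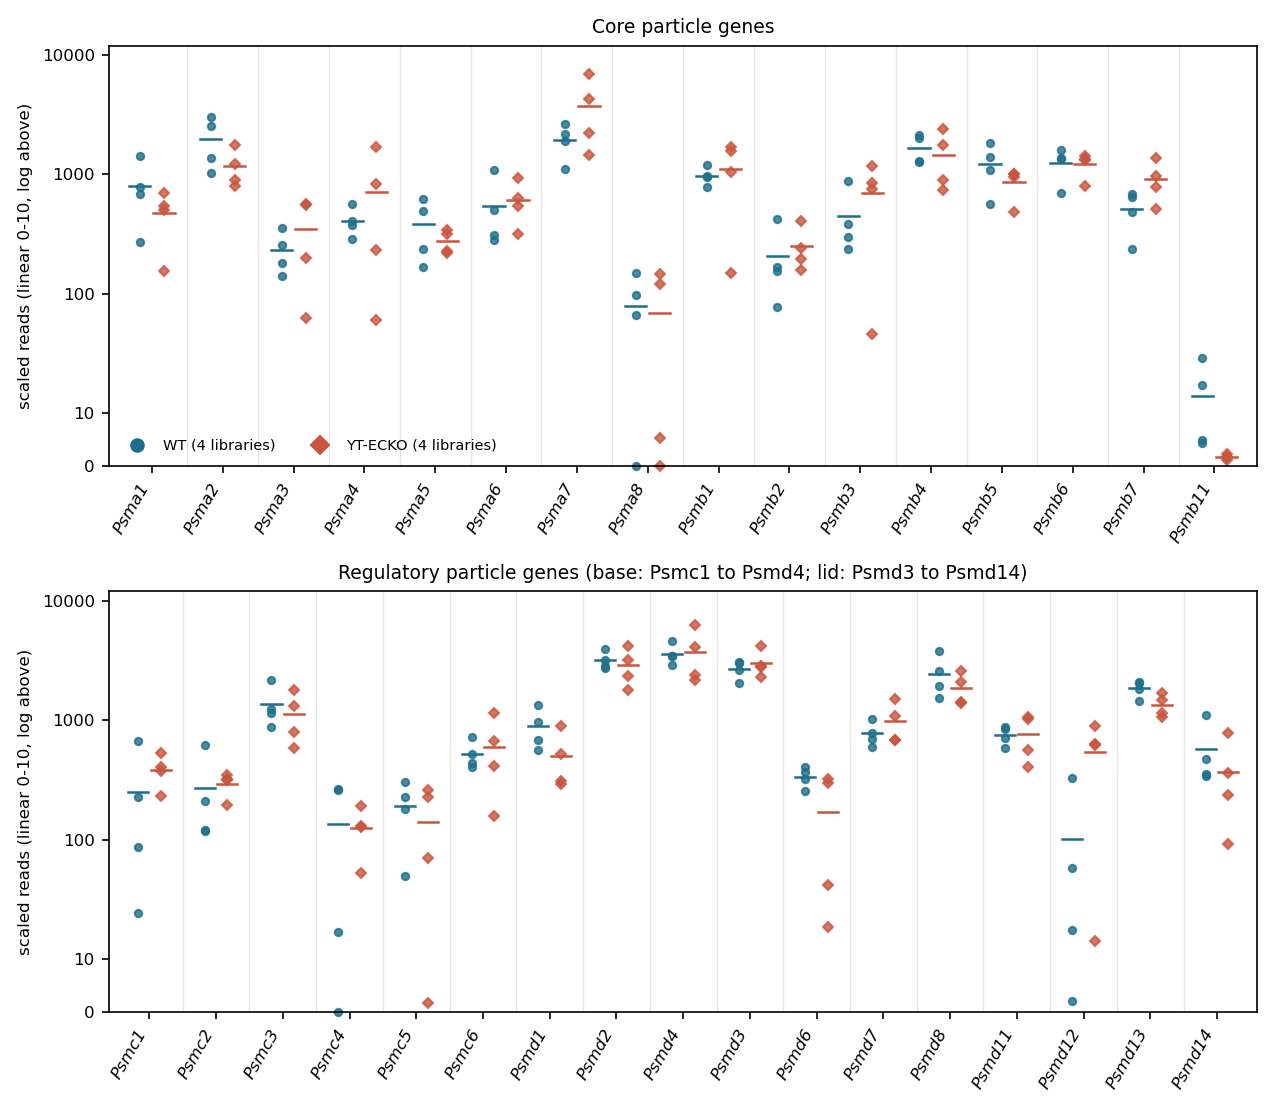
Scaled reads of each core particle gene (top) and regulatory particle gene (bottom) in every library, on an axis that is linear from 0 to 10 and logarithmic above. Points are libraries (WT circles, YT-ECKO diamonds) and short lines are group means. Of these 33 genes only Psmb11, at 28.8 scaled reads or fewer and not tested, has groups that do not overlap. Of all genes tested 3.40% had groups without overlap.

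Genes of the regulatory base kept overlapping ranges throughout. Of its 9 tested genes, 3 had higher and 6 lower estimates in YT-ECKO (median log2 difference -0.05). The 6 ATPase genes, which encode the unfolding ring, summed to 2726 ± 739 scaled reads in WT and 2666 ± 451 in YT-ECKO (SD, n = 4 each). Psmc3, the ATPase gene with the highest mean WT level per kb, stood at 874, 2162, 1161 and 1232 scaled reads in WT 1 to 4 and 1804, 589, 1308 and 798 in YT-ECKO 1 to 4. Its log2 difference was -0.28 ± 0.44 (SE). Psmc6 stood at 519, 408, 442 and 722 in WT 1 to 4 and 416, 669.5, 157 and 1141 in YT-ECKO 1 to 4, with both the lowest and the highest value in YT-ECKO. Psmc1 stood at 227, 86.0, 24.2 and 669.5 in WT 1 to 4 and 377, 231, 402 and 529.7 in YT-ECKO 1 to 4; the lowest and the highest value were both WT. Psmc2 stood at 211, 120.4, 119 and 625 in WT 1 to 4 and 320.2, 318, 345 and 193 in YT-ECKO 1 to 4. Without WT 4, the WT values of Psmc2 reached no more than 211. Psmc4 stood at 0, 268, 259 and 16.9 in WT 1 to 4 and 52.4, 129, 129.7 and 192 in YT-ECKO 1 to 4, with WT 1 and 4 below and WT 2 and 3 above all YT-ECKO libraries. Psmc5 stood at 303, 181, 49.4 and 228 in WT 1 to 4 and 1.59, 229.6, 70.6 and 262 in YT-ECKO 1 to 4, with the lowest value in YT-ECKO 1 and the highest in WT 1. For these 6 genes the limma log2 differences ran from -0.31 (Psmc5) to 0.70 (Psmc1), with adjusted p of 0.990 or more. That of Psmc1 was 0.35 without WT 3 and 1.15 without WT 4.

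Psmd4 and Psmd2 had intervals among the narrowest of the members. Psmd4 stood at 3451, 3437, 2892 and 4576 scaled reads in WT 1 to 4 and 6282, 2385, 2189 and 4073 in YT-ECKO 1 to 4. YT-ECKO 1 was highest and YT-ECKO 3 lowest, and the 95% interval of the log2 difference of Psmd4 ran from -0.78 to 0.67. Psmd2, a scaffold that binds ubiquitin shuttles, stood at 2748, 3172, 2872 and 3943 in WT 1 to 4 and 3189, 4211, 1795 and 2361 in YT-ECKO 1 to 4, with an interval from -0.89 to 0.52. Psmd1, the other large scaffold, had the lowest estimate of the base. Its values were 966, 560.3, 686 and 1348 in WT 1 to 4 and 519, 311, 889.6 and 291 in YT-ECKO 1 to 4. YT-ECKO 3 lay within the WT range and the other YT-ECKO libraries below it (log2 difference -0.73 ± 0.50 (SE), limma adjusted p = 0.981, two-sided exact permutation p = 0.114). Psmd1 overlaps Htr2b on the opposite strand and Gm21972 on the same strand. The sources used here do not state whether counting used strand, which in any case would not part Psmd1 from Gm21972.

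In the lid the estimates were the most spread of either particle. Of its 8 tested genes, 3 had higher and 5 lower estimates in YT-ECKO (median log2 difference -0.19), and over the 17 genes of the regulatory particle 6 were higher and 11 lower, with a median of -0.05. Psmd12 (chr11:107479484-107504362, GRCm38), a structural lid subunit, had the highest estimate of all members. It stood at 327, 57.4, 17.3 and 1.99 scaled reads in WT 1 to 4 and at 633, 14.2, 626 and 891 in YT-ECKO 1 to 4. YT-ECKO 1, 3 and 4 lay above all WT libraries, while YT-ECKO 2 lay below WT 1, 2 and 3. The log2 difference of Psmd12 was 1.43 ± 0.66 (SE). Its limma p was 0.0398 before and 0.882 after adjustment, and its two-sided exact permutation p was 0.114. Psmd6 had the lowest estimate, with 254, 365, 405 and 320.2 in WT 1 to 4 and 41.6, 300.5, 18.4 and 321 in YT-ECKO 1 to 4. YT-ECKO 1 and 3 lay below all WT libraries, and YT-ECKO 2 and 4 among them (log2 difference -0.81 ± 0.58 (SE), limma adjusted p = 0.981, and -0.53 without YT-ECKO 3). Psmd14, the enzyme that removes ubiquitin chains, stood at 339, 476, 354 and 1117 in WT 1 to 4 and 776, 92.2, 238 and 362 in YT-ECKO 1 to 4. Psmd11, which clamps lid to core, stood at 581, 871, 838 and 714 in WT 1 to 4 and 1016, 403, 1073 and 568 in YT-ECKO 1 to 4. For Psmd14 the highest value was WT 4 and the lowest YT-ECKO 2 (log2 difference -0.56 ± 0.57 (SE), or -0.24 without WT 4, -0.23 without YT-ECKO 2 and -0.91 without YT-ECKO 1), and for Psmd11 the YT-ECKO range enclosed the WT range. Psmd13 stood at 2058, 2081, 1460.2 and 1837 in WT 1 to 4 and 1487, 1056, 1148 and 1689 in YT-ECKO 1 to 4, with overlap in YT-ECKO 1 and 4 only (log2 difference -0.44 ± 0.38 (SE), limma adjusted p = 0.990). Psmd3, with the highest mean level per kb of the lid in WT, had a 95% interval from -0.55 to 0.84.

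Promoters of 5 members are shown because they are those of Psme4, whose groups did not overlap, of Psmd12 and Psma7, with the highest estimates of their particles, and of the abundant Psmd4 and the catalytic Psmb5. Each line gives the 250 bases before the RefSeq start (GRCm38.p6) 5′ to 3′ on the gene's strand, with capitals for matches to 4 motifs fixed for this purpose: the antioxidant response element core TGACNNNGC, which Nfe2l1 and Nfe2l2 bind, the ETS motif CCGGAAG, the TEAD motif GGAATG and the NF-Y motif CCAAT, on either strand.
Psme4 (chr11:30771525-30771774, plus strand): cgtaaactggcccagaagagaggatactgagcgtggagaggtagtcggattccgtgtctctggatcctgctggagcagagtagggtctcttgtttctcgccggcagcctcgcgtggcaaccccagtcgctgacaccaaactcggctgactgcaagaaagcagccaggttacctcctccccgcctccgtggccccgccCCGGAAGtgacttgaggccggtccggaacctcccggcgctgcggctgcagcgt
Psmd12 (chr11:107479278-107479527, plus strand): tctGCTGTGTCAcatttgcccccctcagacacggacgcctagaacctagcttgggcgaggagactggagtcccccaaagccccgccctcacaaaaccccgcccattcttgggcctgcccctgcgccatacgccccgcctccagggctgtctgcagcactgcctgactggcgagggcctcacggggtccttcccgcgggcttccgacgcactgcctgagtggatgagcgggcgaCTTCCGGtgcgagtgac
Psmd4 (chr3:95042615-95042864, minus strand): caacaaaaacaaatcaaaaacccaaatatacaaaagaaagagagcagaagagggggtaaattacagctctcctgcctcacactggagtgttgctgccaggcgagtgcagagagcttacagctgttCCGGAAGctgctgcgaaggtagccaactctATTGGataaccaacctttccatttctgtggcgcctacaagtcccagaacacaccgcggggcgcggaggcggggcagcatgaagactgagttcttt
Psma7 (chr2:180042465-180042714, minus strand): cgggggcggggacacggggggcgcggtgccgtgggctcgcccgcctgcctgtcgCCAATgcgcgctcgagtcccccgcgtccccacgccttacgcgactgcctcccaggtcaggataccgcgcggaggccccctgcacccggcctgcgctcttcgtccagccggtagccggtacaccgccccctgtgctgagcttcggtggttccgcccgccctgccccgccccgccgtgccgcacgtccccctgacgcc
Psmb5 (chr14:54617996-54618245, minus strand): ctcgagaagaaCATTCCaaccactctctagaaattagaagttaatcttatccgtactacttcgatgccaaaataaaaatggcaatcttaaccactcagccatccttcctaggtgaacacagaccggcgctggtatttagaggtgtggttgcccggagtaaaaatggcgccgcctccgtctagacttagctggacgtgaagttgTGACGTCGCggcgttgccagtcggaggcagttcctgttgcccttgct
GENCODE places some starts earlier than RefSeq, so the last 49 bases shown for Psme4, 44 for Psmd12 and 27 for Psmb5 lie within the GENCODE gene. Psme4 holds the ETS motif from 53 to 47 bases before the RefSeq start, across the GENCODE start. Psmd12 holds it on the opposite strand from 17 to 11 bases before the start, which is inside the GENCODE gene, with the antioxidant element, also on the opposite strand, from 247 to 239. Psma7 holds only an NF-Y match, from 196 to 192. Psmd4 holds the ETS motif from 125 to 119 bases before the start, beside an NF-Y match. Psmb5 holds the antioxidant element from 47 to 39 bases before the start and a TEAD match from 239 to 234. Over the 42 promoters found for 39 members, ETS matches lay in 14 of 42 (33.3%), against 6.91% of all 32851 promoters and 14.4% of those of the genes tested. They were found in 9 of 15 promoters of the regulatory particle and 1 of 13 of the core. NF-Y matches lay in 14 of 42 member promoters (33.3%), against 33.8% of all promoters. By particle they lay in 7 of 13 core promoters and 4 of 15 of the regulatory particle. The antioxidant element lay in 5 of 42 member promoters (11.9%, against 10.2% of all), and the TEAD motif in 4 of 42 (9.52%, against 12.6% of all). Among promoters of the genes tested the shares were 11.8% for the antioxidant element, 10.2% for TEAD and 34.4% for NF-Y. The shares over all member promoters were near this background for the antioxidant element, TEAD and NF-Y. The ETS and TEAD motifs share the letters GGAA, but no match overlaps another in the promoters shown, and a match is a description of the sequence, not a bound site.

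Psme4 was the tested member whose groups did not overlap. Psme4 (chr11:30771726-30880361, GRCm38) encodes the large monomeric activator PA200, which binds the ends of the core. It stood at 239, 288, 195 and 264 scaled reads in WT 1 to 4 and at 751, 494, 492 and 571 in YT-ECKO 1 to 4. All 4 YT-ECKO libraries lay above all 4 WT libraries, with group means of 246 ± 39.8 in WT and 577 ± 122 in YT-ECKO (SD, n = 4 each), a ratio of 2.34. The two-sided exact permutation p was 0.0286, the smallest possible here. Any gene with this separation gives that value, so it adds nothing to the separation itself, which 1.33% of all genes tested showed in this direction. On the log2 scale of the test the difference of Psme4 was 0.90 ± 0.52 (SE) with a 95% interval from -0.16 to 1.97 and a limma adjusted p of 0.960. Psme4 thus did not pass the test over all genes. It is among the named activators, but it is set apart here for a separation seen in its values.

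Psme1 and Psme2 encode the ring-shaped activator PA28. Psme1 stood at 78.0, 44.5, 78.8 and 259.6 scaled reads in WT 1 to 4 and 4.68, 39.9, 74.4 and 125 in YT-ECKO 1 to 4. Psme2 stood at 322, 226, 0 and 358 in WT 1 to 4 and was listed at 0 in all 4 YT-ECKO libraries. With WT 3 also at 0 the groups overlapped (two-sided exact permutation p = 0.143). Psme2b on chromosome 11 is a near-identical copy, with 99.4% of 794 aligned transcript bases matching. The alignment covers 82.5% of the Psme2 transcript and 94.9% of that of Psme2b. Reads from the aligned part may have been given to either gene, so their separate values are uncertain. Psme2b stood at 602, 879.8, 329 and 573 in WT 1 to 4 and 428, 567, 683 and 681 in YT-ECKO 1 to 4. Summed, the pair stood at 924, 1106, 329 and 931 in WT 1 to 4 and 428, 567, 683 and 681 in YT-ECKO 1 to 4, and the log2 difference of the sum was -0.33 ± 0.49 (SE), for a limma adjusted p of 0.990. The groups overlapped in this sum, with WT 3 the lowest of all and WT 1, 2 and 4 the highest. Psme3, which forms a nuclear activator ring, had a log2 difference of -0.11 ± 0.60 (SE). Psmf1, an inhibitor of the core in vitro, stood at 107, 135, 580.4 and 0 in WT 1 to 4 and 0, 35.5, 0 and 13.8 in YT-ECKO 1 to 4. WT 1, 2 and 3 lay above all YT-ECKO libraries and WT 4 was listed at 0. Its log2 difference was -0.97 ± 0.47 (SE), and -0.51 without WT 3. The limma p of Psmf1 was 0.0478 before and 0.910 after adjustment. Of the 5 tested genes of this group, 2 had higher and 3 lower estimates in YT-ECKO (median log2 difference -0.11).

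**Figure D4:**
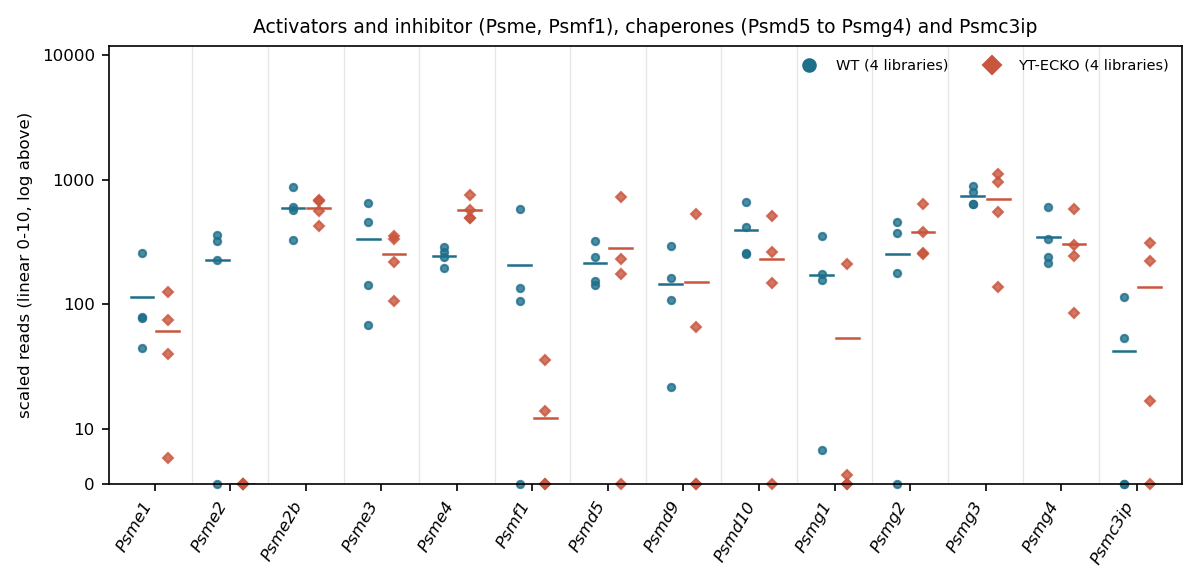
Scaled reads of activator, inhibitor and chaperone genes and of Psmc3ip in every library (WT circles, YT-ECKO diamonds), with group means as short lines, on an axis that is linear from 0 to 10 and logarithmic above. The YT-ECKO values of Psme4 start at 492, above the highest WT value of 288.

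Assembly chaperones gave lower estimates for most genes and no call. Of the 7 tested, 1 had higher and 6 lower estimates in YT-ECKO (median log2 difference -0.26), where 43.1% of all genes tested had higher ones. Psmg1, which pairs with Psmg2 to assemble the alpha ring, had the lowest estimate, with 6.10, 156, 357 and 174 scaled reads in WT 1 to 4 and 1.60, 0, 213 and 0 in YT-ECKO 1 to 4. Psmg2 had the highest, with 179, 374, 456 and 0 in WT 1 to 4 and 379, 643, 254 and 258 in YT-ECKO 1 to 4. The estimates of these partners thus pointed in opposite directions, -0.74 ± 0.50 (SE) and 0.58 ± 0.60 (SE) on the log2 scale, each with a 95% interval that includes 0, and that of Psmg2 was 0.13 without WT 4 and 0.36 without YT-ECKO 2. Psmg3, a member of the other alpha ring chaperone pair, was the most abundant chaperone per kb in WT, at 843 ± 139 scaled reads per kb (SD, n = 4). Psmd5, Psmd9 and Psmd10, chaperones of the base, had log2 differences of -0.03, -0.26 and -0.72. The linear means of Psmd5 and Psmd9 were instead higher in YT-ECKO, at 283 against 216 in WT and 151 against 146 in WT. Psmc3ip was listed at 0 in WT 1, WT 2 and YT-ECKO 1 and did not exceed 311 scaled reads in any library.

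Some members were high in a library and close to 0 in a replicate of it. Among WT libraries 46 members had a value of 100 scaled reads or more somewhere, and for 8 of these another WT library stood under 10. In YT-ECKO this held for 8 of 44. In all, 37 members were above 0 in all 8 libraries. Near-identical copies were found for 11 members (at least 90% identity over at least 50% of the transcript), with 7 such copies for Psmb3 and 2 each for Psma5, Psmb5, Psmd2, Psme2 and Psme2b. Apart from Psme2 and Psme2b, these copies are annotated pseudogenes without a row in the tables. Besides, 12 members overlap another coding gene. How reads of such copies were counted is not stated in the sources used here, so the values of these members are uncertain.

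None of the 44 tested genes listed for the rest of the ubiquitin and proteasome system was called by limma, where 0.0345% of all genes were. At an unadjusted p under 0.05 there was 1 of the 44, Mafk, or 2.27%, against 5.47% of all genes, so these counts do not stand above the background. Of the immunoproteasome genes that the rule left out, Psmb9, the interferon-induced counterpart of Psmb6, stood at 222, 0, 419.9 and 140.3 scaled reads in WT 1 to 4 and 166, 516, 676 and 812 in YT-ECKO 1 to 4. YT-ECKO 2, 3 and 4 lay above all WT libraries and YT-ECKO 1 within them (log2 difference 1.11 ± 0.60 (SE), limma adjusted p = 0.928, and 0.73 without WT 2). Psmb10 had a difference of -0.32 ± 0.59 (SE), and Psmb8 was at 0 in 5 libraries and was not tested. Of 17 genes of proteasome-associated factors, 7 had higher and 10 lower estimates in YT-ECKO (median log2 difference -0.04). Pomp, the maturation factor of the core, stood at 7612, 9919, 7388 and 11253 scaled reads in WT 1 to 4 and 8522, 8964, 6369.7 and 10240.5 in YT-ECKO 1 to 4, and its 95% interval ran from -0.62 to 0.46. Shfm1, the small lid subunit now named Sem1 that the symbol rule does not reach, stood at 6328 ± 1867 in WT and 7055 ± 758 in YT-ECKO (SD, n = 4 each). Uchl5, a deubiquitinase of the regulatory particle, stood at 372, 100.4, 199 and 177 in WT 1 to 4 and 3.14, 28.3, 111 and 64.4 in YT-ECKO 1 to 4, with overlap only between WT 2 and YT-ECKO 3 (log2 difference -0.90 ± 0.51 (SE), limma adjusted p = 0.956).

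Of 6 genes for ubiquitin and its activating enzymes, 3 had higher and 3 lower estimates in YT-ECKO (median log2 difference 0.05). Of 12 genes of the p97 unfoldase system, 3 had higher and 9 lower estimates in YT-ECKO (median log2 difference -0.13). Vcp, which encodes the p97 protein itself, stood at 5367, 4482, 4318 and 3748 scaled reads in WT 1 to 4 and 4034, 3439.5, 3444 and 3743 in YT-ECKO 1 to 4, the highest 3 values being WT (95% interval -0.88 to 0.34). Nfe2l1, the transcription factor that raises proteasome genes when proteasomes fail, stood at 4372, 4130.2, 6260.2 and 4564 in WT 1 to 4 and 4523, 3946, 2546 and 5349 in YT-ECKO 1 to 4. Its values overlapped widely, with a 95% interval from -0.91 to 0.38. Of the 7 tested transcription factors of this list, 3 had higher and 4 lower estimates in YT-ECKO (median log2 difference -0.19). Mafk and Mafg, small partners of Nfe2l1, had estimates of opposite sign. Mafk stood 1.24 ± 0.58 (SE) log2 units above WT (limma adjusted p = 0.896). Mafg differed by -1.02 ± 0.54 (SE) log2 units (limma adjusted p = 0.928), and by -0.57 without YT-ECKO 4. Psmd2, Psmd3, Psmd13, Psmb9, Uchl5, Shfm1, Vcp, Mafk and Mafg were named after their values were seen.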

How the data were processed

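RNA was extracted with Trizol and 500 ng went into a Lexogen Quant-Seq kit library, per the labels' protocols. Bowtie2, edgeR and the mm10 build are named in the submitters' processing notes; the sources used here do not give versions, counter, strand setting or annotation. The authors deposited log2 values per gene symbol, with none below 0; 2 was raised to each value, and a listed 0 stayed 0. A single read was worth 0.611 to 1.56 scaled reads; where that is below 1, single reads seem to be listed at 0. Tables of WT 1, 2 and 3 use another number format than the other 5; its meaning is not known, and with WT 4 the only WT library in the other format it cannot be compared within groups.

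The 8706 genes reaching 10 scaled reads in 4 or more libraries were tested with limma 3.58.1 (R 4.3.3; trended, robust) on the log2 of scaled reads plus 2 to the power 7, which understates changes of low genes, adjusted by Benjamini-Hochberg over all of them (threshold 0.05). Exact permutation tests of linear means were two-sided, 4 against 4. The function was tested on simulated data. Intervals cover the spread between libraries. Symbols were placed with GENCODE M21 (GRCm38), which matched all 47 members; RefSeq promoters matched 39. Near copies were sought among GENCODE transcripts with blastn. Members and lists were chosen with earlier results of these data known. Values in every library are given for members called or without overlap between groups, catalytic and ATPase genes, named activators, Psma7, Psmd4, Psmd11, Psmd14, Pomp, Nfe2l1 and the highest and lowest estimate of each role, plus genes stated as named later; 1 further gene is not reported here. Alternatives were other pseudocounts, filters and scalings, a replicate block, the Rn45s share as a covariate, moderation without trend and robust fit, and each library left out.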

Additional observations from a re-analysis of the deposited data

Results flagged for a closer look

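In groups of 4 libraries, a library was picked out where its gap to the nearest other exceeded Dixon's 95% critical share of the group's range. The 47 members, 3 sums over members and 10 other genes gave 120 groups, of which 5 had such a library, and chance gives about 1 in 20. Psmb5 in YT-ECKO 2 stood at 483 scaled reads, below the other YT-ECKO libraries. Psme1 in WT 4 stood at 259.6, above the other WT libraries. Psmd12 in WT 1 stood at 327, Psmd9 in YT-ECKO 3 at 537, and Psmg1 in YT-ECKO 3 at 213, each above the rest of its group.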

How the results depend on the processing

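The number of members called was 0 under all 19 planned settings, and none of the 698 refitted differences of 37 genes passed (lowest adjusted p 0.494, Psmd12 without YT-ECKO 2). Over all genes 3 were called, against 0 with a pseudocount of 1, 0 with no filter, 1 without trend and robust moderation, 5 with the replicate block and 0 to 6 with a library left out (1 without WT 1, 0 without WT 2, 6 without YT-ECKO 3). Same-numbered deviations correlated at -0.03, -0.04, 0.07 and 0.08 for replicates 1 to 4. WT 3 and WT 4 correlated most with the YT-ECKO library of their own number, and WT 1 and WT 2 did not. No pairing by replicate number showed throughout, but values this small cannot settle whether libraries were paired. Upper quartile scaling moved the median of all genes to -0.22, of the regulatory particle to -0.26 and of the core to -0.16. The log2 difference of Psme4 stayed between 0.52 and 1.22, that of Psmd12 between 0.72 and 3.08, and that of Psmf1 between -3.49 and -0.39, over the pseudocounts and other settings that keep all libraries. Signs changed in 34 of the 698 values, in 11 genes, and the cause was not tested. They were Psmb6 (0.00097 and 0.00049 with pseudocounts 1 and 16, 0.013 with equal totals, 0.0196 also without Rn45s), Psmc6 (0.029 with a pseudocount of 2 to the power 9), and with upper quartile scaling Psmd3 (-0.056), Psme2b (-0.14) and Shfm1 (-0.017). Psme2b also changed sign when summed with Psme2 (-0.33), a setting chosen after seeing the data. With libraries left out in turn the ranges that crossed 0 were Psmb6 (-0.23 to 0.17), Psmc4 (-0.18 to 0.37), Psmc6 (-0.36 to 0.36), Psmd4 (-0.34 to 0.15), Psmd11 (-0.22 to 0.18), Pomp (-0.18 to 0.049), Psmd2 (-0.38 to 0.0068), Psmd3 (-0.016 to 0.26), Psme2b (-0.18 to 0.20) and Psmb10 (-0.50 to 0.0034). Values under 10 scaled reads rest on few reads.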
